A study of Mus musculus with 20 samples.

Results

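High-fat feeding was compared with chow feeding in the white adipose tissue of mice that drank tea. The comparison rests on 10 of the study's 20 libraries, 5 from mice on chow (chow tea) and 5 from mice on a high-fat diet (high-fat tea), each library from 1 mouse. All 10 mice of the comparison were given Tibetan tea, prepared as an extract in water, over 10 weeks. Tea was thus common to both sides, and diet was the difference given by the labels. Another 10 mice had the same diets with plain water, and they serve here only as the second setting of the same diet contrast. Strain, sex, age, fat depot and the hour at which tissue was taken are not stated in the sources used here. The files hold reads per gene from poly-A RNA, and the 10 libraries of the comparison had 62772320 to 86919459 reads in genes. After removal of genes with few reads, 21306 of the 56805 annotated genes were tested. Levels are CPM, reads of a gene per 1000000 reads in genes after scaling between libraries, and positions are on GRCm39. In bulk tissue, fewer cells of a type and less RNA per cell cannot be told apart.

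White adipose tissue stores triglyceride in fat cells and secretes hormones such as leptin and adiponectin. Its cells, like those of other organs, carry a circadian clock. In this clock the activators BMAL1 (gene Arntl) and CLOCK or its relative NPAS2 bind E-box sequences and switch on their own repressors, the PER and CRY proteins, together with the nuclear receptors REV-ERB, the DEC proteins and the PAR bZIP factors that carry the rhythm to output genes. REV-ERB in turn represses Arntl and Npas2, so that the activators and the E-box targets peak at opposite hours. Because 1 tissue sample per mouse shows 1 moment of this cycle, a level cannot separate an earlier or later clock from a stronger or weaker one.

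The libraries carried fat cell transcripts, with Adipoq, which encodes adiponectin, at 3243, 3655, 2745, 2929 and 3318 CPM in chow tea mice and 3458, 2057, 3101, 844 and 3695 CPM in high-fat tea mice. Each of the 17 fat cell markers listed was tested, and their summed level was 61489 to 83571 CPM in chow tea and 46156 to 76438 CPM in high-fat tea, apart from high-fat tea replicate 4 at 16506 CPM. That library also held kidney transcripts, with Kap at 14005 CPM and Umod at 1072 CPM, against at most 342 and 39.9 CPM in the other 9 libraries. Muscle transcripts stood out in 3 libraries, with Acta1 at 7945 CPM in high-fat tea replicate 1, 2092 CPM in replicate 3 and 1128 CPM in chow tea replicate 1, against at most 96.0 CPM in the rest. The pancreatic lipase Pnlip reached at most 4.43 CPM, and the seminal vesicle gene Svs5 at most 1.78 CPM. High-fat tea replicate 3 lay nearest to the chow tea mice. On the second principal component of all libraries it scored −33.3, between the chow tea mice (−48.0 to −68.2) and the other 4 high-fat tea mice (−2.20 to 20.5). In the water groups, pancreas acinar transcripts took 41.1% of the reads of chow water replicate 1. Seminal vesicle and other male tract transcripts took 3.92% of those of high-fat water replicate 4, beside 1.56% from the adrenal cortex, and muscle transcripts took 3.86% in high-fat water replicate 5. Their part in the water and interaction results was not tested beyond the fits without such libraries given with those results.

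High-fat feeding in tea-drinking mice changed 38 of the 21306 genes tested, or 0.178%, at an adjusted p below 0.05 (edgeR quasi-likelihood test). Of these, 8 rose (0.0375% of genes tested) and 30 fell (0.141%). Genes of the circadian clock made up 6 of the 8 rises and 3 of the 30 falls. The remaining calls included a desaturase (Scd3), an enzyme of fatty acid elongation (Hacd2), one of the mevalonate pathway (Pmvk), a peroxisome factor (Pex16) and the hormone precursor gene Agt, all of them lower on the high-fat diet. In 37 of the 38 the libraries of both groups did not overlap, against 2.77% of all genes tested. The calls were made on these same libraries, so the lack of overlap follows largely from the selection and is no separate support. The folds were small for many, with 16 of the 38 below a 2-fold difference. Median log2 fold change over all genes was 0.07.

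The number of calls depended on single mice and on the tool. It was 390 (1.79% of genes tested; 125 higher, 265 lower) without high-fat tea replicate 3, and all 38 were among them. That mouse lay nearest to the chow tea mice in these same data, so leaving it out tends to widen the diet difference. Calls gained in that fit, here and below, are no separate support. The number was 10 without chow tea replicate 5, 11 without chow tea replicate 1, 20 without chow tea replicate 4, and 14 without high-fat tea replicate 1 or without replicate 5. DESeq2 called 935 genes (4.39%; 522 higher, 413 lower) and limma voom 73 (0.343%; 10 higher, 63 lower), in each case with all 38 included. At an unadjusted p below 0.05 there were 3482 genes (16.3%), 2168 higher (10.2%) and 1314 lower (6.17%). A total of 9 calls held in all 10 fits that left out 1 mouse, namely Dbp, Ciart, Bhlhe41, Npas2, Arntl and Clock of the clock list, and Sccpdh, Apmap and Rce1. Smaller fits kept fewer of them. With only the 10 tea libraries fitted, Bhlhe41, Sccpdh, Rce1, Clock and Apmap had adjusted p of 0.0683 to 0.101. Without 9 libraries with organ transcripts, 4 of them tea libraries, Ciart, Npas2, Arntl, Rce1 and Clock had adjusted p of 0.0527 to 0.116. Dbp was called in both. In what follows a gene called or not called is one by edgeR. Of the named genes that edgeR did not call, DESeq2 called Per2, Per3, Hlf, Nfil3, Elovl5, Hsd17b12, Lep, Mest, Fgf13, Cyp2d22, Itgax, Mmp12, Acot4, Krt79 and Cdkn1a (adjusted p of 4.08e-05 to 0.0477), and voom called Per3, Cyp2d22 and Cdkn1a.

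In the clock list 9 of 19 genes were called, 6 higher and 3 lower, beside 0.178% of all genes tested. The median log2 fold change of the list was 0.52, with 11 members above 0 and 8 below. All 3 falls were of activators of the loop, and the 6 rises were of repressors and output factors. Clock and the members not called lie outside the rule for named genes and are given as members of the list.

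Among the activators, Npas2 (chromosome 1, 39232812 to 39402317, plus strand), the relative of Clock that pairs with BMAL1, fell the most of any named gene. The chow tea mice had 23.9, 13.2, 34.3, 19.5 and 41.4 CPM and the high-fat tea mice 1.93, 1.24, 2.46, 1.81 and 1.46 CPM (replicates 1 to 5 in each). The highest high-fat mouse stayed below the lowest chow mouse, and the means were 26.5 ± 11.3 and 1.78 ± 0.469 CPM (SD, n = 5), 14.9-fold lower on the high-fat diet (log2 −3.9, SE 0.36, adjusted p = 2.29e-05). Arntl (chromosome 7, 112806672 to 112913333, plus strand), which encodes BMAL1, had 19.1, 16, 34, 18.8 and 32.3 CPM in chow tea mice and 4.13, 3.2, 2.78, 1.94 and 3.67 CPM in high-fat tea mice. Its groups were also far apart (log2 −2.93, SE 0.31, adjusted p = 1.27e-04), a 7.64-fold fall. Clock (chromosome 5, 76357715 to 76452639, minus strand) went from 101, 82.2, 102, 105 and 122 CPM to 63.5, 51.1, 54.8, 57.4 and 71.2 CPM. This was a smaller fall of 1.72-fold, with little spread between mice (log2 −0.78, SE 0.10, adjusted p = 0.00178). Clock had an adjusted p of at most 0.0104 in every fit that left out 1 mouse, and of 0.101 with only the tea libraries and 0.116 without the 9 libraries with organ transcripts.

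The output factor Dbp (chromosome 7, 45354512 to 45359627, plus strand) had the lowest p of all genes tested. It stood at 10.4, 10.3, 7.15, 10.0 and 7.23 CPM in chow tea mice and at 51.2, 84.3, 65.9, 83.9 and 49.3 CPM in high-fat tea mice. Every high-fat mouse was at 49.3 CPM or more and every chow mouse at 10.4 CPM or less, a 7.42-fold rise (log2 2.89, SE 0.22, adjusted p = 1.56e-06). Sphk2, on the other strand, covers 18% of the exonic length of Dbp, and the counts cannot tell the genes apart. Its relative Tef (chromosome 15, 81686622 to 81711064, plus strand) rose from 126, 152, 83.9, 134 and 89 CPM to 262, 280.3, 274, 373 and 229.7 CPM (log2 1.28, SE 0.23, adjusted p = 0.0237). The third PAR bZIP gene, Hlf, stood at 15.6, 20.7, 12.1, 16.1 and 8.42 CPM against 26, 46.1, 29.6, 143 and 28.5 CPM. Its groups did not overlap, but high-fat tea replicate 4, the library with kidney transcripts, was far above the rest. That library was also the highest for Tef. Hlf was not called (log2 1.91, adjusted p = 0.0845, called at 0.0323 without high-fat tea replicate 3). Nfil3, a repressor that competes for the same sites, was lower on average, at 6.43 ± 5.66 CPM against 26.3 ± 16.4 CPM, and was not called (log2 −2.03, adjusted p = 0.142).

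Of the repressors, Ciart (chromosome 3, 95785815 to 95789563, minus strand), whose protein binds the BMAL1 complex, had 1.12, 2.87, 0.837, 1.13 and 1.51 CPM in chow tea mice and 12.6, 8.84, 8.83, 12.8 and 9.1 CPM in high-fat tea mice. That is a 6.99-fold rise with a wide gap between the groups (log2 2.81, SE 0.42, adjusted p = 0.00842). Bhlhe41 (chromosome 6, 145803969 to 145811284, minus strand), encoding DEC2, rose from 3.82, 3.86, 3.32, 2.86 and 2.22 CPM to 21, 21.1, 21.2, 6.71 and 11.2 CPM (log2 2.33, SE 0.33, adjusted p = 0.00351), with 3 high-fat mice above the other 2. For this gene 19% of exonic bases overlap Gm43909 on the opposite strand. Bhlhe40 (chromosome 6, 108637590 to 108643886, plus strand), encoding DEC1, had 12.4, 18.9, 11, 12.3 and 9.87 CPM against 47.1, 64.6, 33.4, 94.8 and 22.4 CPM (log2 2.02, SE 0.39, adjusted p = 0.0375). The high-fat mice of this gene were widely spread, from 22.4 to 94.8 CPM. The highest was replicate 4, the library with kidney transcripts. Nr1d2 (chromosome 14, 4230569 to 4265642, plus strand), which encodes REV-ERB beta, had 77.5, 76.4, 56.4, 76.3 and 74.3 CPM against 110.4, 118, 126, 128 and 132 CPM. Its 1.7-fold rise was modest but even across mice (log2 0.77, SE 0.15, adjusted p = 0.0375).

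Calls of 3 of these rises rested on the full set of mice. Tef was called in 4 of 10 fits that left out 1 mouse, not without chow tea replicate 1, 3, 4 or 5 or high-fat tea replicate 1 or 2 (adjusted p up to 0.116). Bhlhe40 was called in 3 of 10, those without chow tea replicate 2 or high-fat tea replicate 3 or 5 (up to 0.164 in the others). Nr1d2 was called in 1, that without high-fat tea replicate 3 (up to 0.12 in the others). Between 6 and 13 clock list genes were called in the 10 fits, the highest number without high-fat tea replicate 3. The log2 fold changes of these 9 genes kept their direction in each of the fits.

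**Figure D1:**
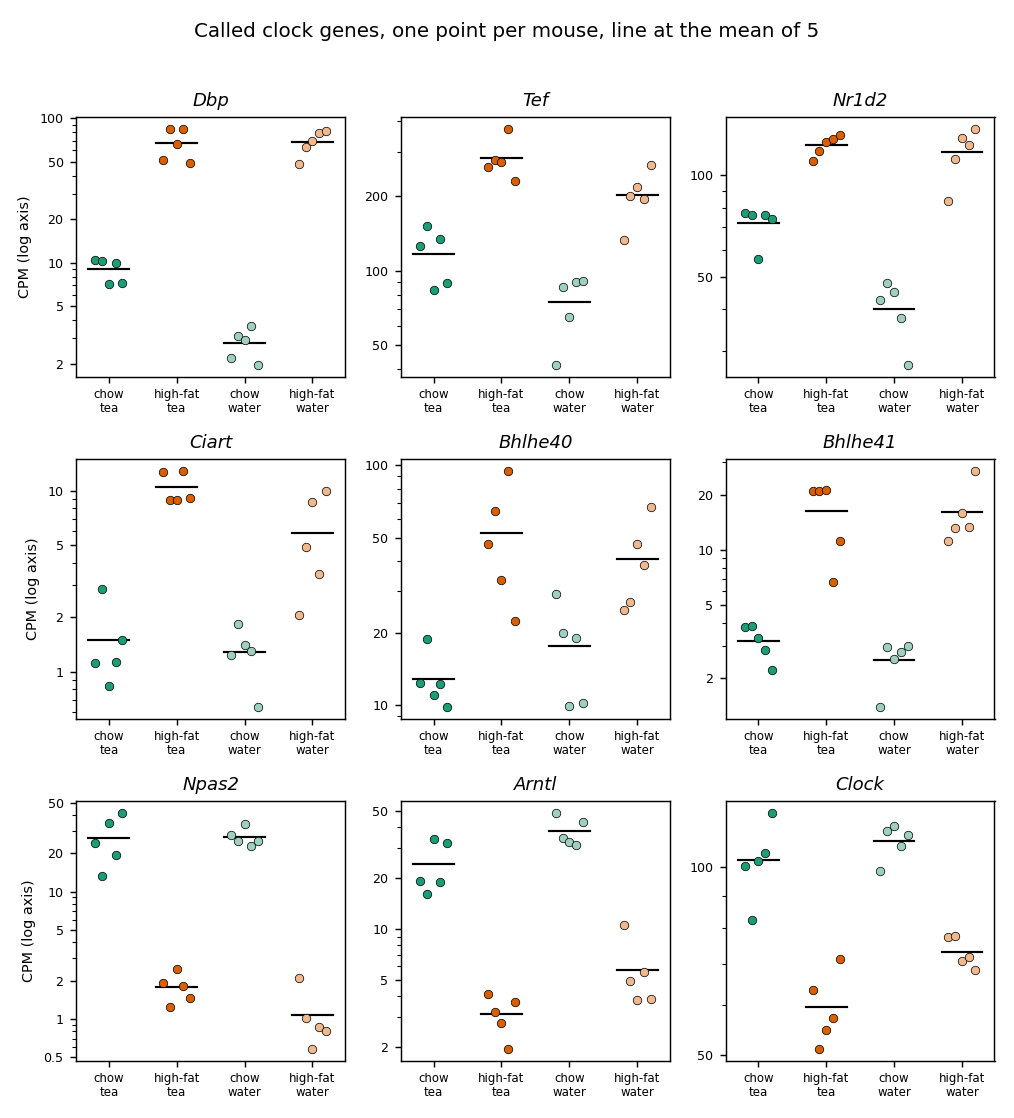
Levels of the 9 called clock genes in CPM on log axes, 1 point per mouse and a line at the mean of 5, for the 2 tea groups and the 2 water groups. In tea-drinking mice the high-fat points of Dbp, Tef, Nr1d2, Ciart, Bhlhe40 and Bhlhe41 all lie above the chow points, and those of Npas2, Arntl and Clock all lie below.

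The PER and CRY genes, the classical repressors of the loop, were not called. Per3 had 22.1, 33.8, 23.5, 34.4 and 16.8 CPM in chow tea mice and 52.4, 95.4, 53.4, 44.8 and 76.4 CPM in high-fat tea mice. The groups did not overlap, and its adjusted p was just above the threshold (log2 1.3, SE 0.28, adjusted p = 0.0613). Per2 averaged 24.4 ± 12.5 and 62.1 ± 23.1 CPM (log2 1.35, adjusted p = 0.107). Per1 was nearly level, at 162 ± 48.7 and 151 ± 49.4 CPM (log2 −0.10, adjusted p = 0.906), and its sign changed with the mice left out. Cry2 had 45 ± 3.32 and 64.7 ± 16.5 CPM (log2 0.52, adjusted p = 0.161), with high-fat tea replicate 4 alone below the chow mice. Cry1 differed by log2 −0.29 (adjusted p = 0.583). Without high-fat tea replicate 3, Per2 (adjusted p = 0.0437) and Per3 (0.0284) were called, and without high-fat tea replicate 4, Cry2 (0.0406).

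Of the nuclear receptors that act on Arntl, Nr1d1, which encodes REV-ERB alpha, had 150.3, 137, 177, 117 and 189.9 CPM against 188, 284, 297, 147 and 174 CPM with overlapping groups (log2 0.50, adjusted p = 0.245). Rora was level at 79.1 ± 8.07 and 77.2 ± 22 CPM (log2 −0.03, adjusted p = 0.955).

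The promoters of the clock genes that rose were searched for the E-box CACGTG, the sequence that BMAL1 and its partners bind. Windows of 300 bases, from 250 before to 50 after each annotated start, were taken from RefSeq on GRCm38.p6, and 16 of the 19 list members matched by symbol. The motif reads the same on both strands and was found in 7.15% of all 32851 windows. Of the 5 called rises with a window, 3 held it (Ciart, Bhlhe41 and Tef). Dbp and Nr1d2 did not hold it in this window, nor did any of the 3 called falls (Npas2, Arntl, Clock). Per1 and Cry1, which were not called, each held 1. The 250 bases before the start are shown for the 3 genes, 5′ to 3′ on the gene's strand, with the E-box in capitals, because Ciart carries 3 copies and Tef carries 1 at each of 2 annotated starts.
Ciart (chr3:95882229-95882478, minus strand): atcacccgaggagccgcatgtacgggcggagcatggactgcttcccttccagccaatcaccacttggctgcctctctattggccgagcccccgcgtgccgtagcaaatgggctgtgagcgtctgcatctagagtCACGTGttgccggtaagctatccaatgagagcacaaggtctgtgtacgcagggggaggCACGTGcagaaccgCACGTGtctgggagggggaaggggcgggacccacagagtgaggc
Bhlhe41 (chr6:145865421-145865670, minus strand): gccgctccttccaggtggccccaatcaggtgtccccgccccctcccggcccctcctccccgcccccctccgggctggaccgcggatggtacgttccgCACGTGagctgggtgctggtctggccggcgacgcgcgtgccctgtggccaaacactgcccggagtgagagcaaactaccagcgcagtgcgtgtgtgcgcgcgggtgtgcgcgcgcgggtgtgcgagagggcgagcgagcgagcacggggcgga
Tef, first start (chr15:81802423-81802672, plus strand): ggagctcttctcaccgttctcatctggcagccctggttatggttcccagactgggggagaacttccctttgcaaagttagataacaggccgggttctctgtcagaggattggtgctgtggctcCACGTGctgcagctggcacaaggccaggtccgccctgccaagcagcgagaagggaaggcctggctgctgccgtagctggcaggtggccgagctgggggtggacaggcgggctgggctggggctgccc
Tef, second start (chr15:81811164-81811413, plus strand): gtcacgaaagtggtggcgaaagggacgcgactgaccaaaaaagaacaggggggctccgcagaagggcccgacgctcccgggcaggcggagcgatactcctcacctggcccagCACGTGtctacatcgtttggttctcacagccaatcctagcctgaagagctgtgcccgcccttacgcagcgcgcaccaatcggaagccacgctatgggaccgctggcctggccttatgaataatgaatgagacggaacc
The copies of Ciart begin 116, 58 and 44 bases before the start, that of Bhlhe41 begins 153 bases before it, and those of Tef 127 and 138 bases before theirs. A match of letters is a description of the sequence, and binding was not measured in these samples. For Bhlhe40 and Per2 no window was used.

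**Figure D2:**
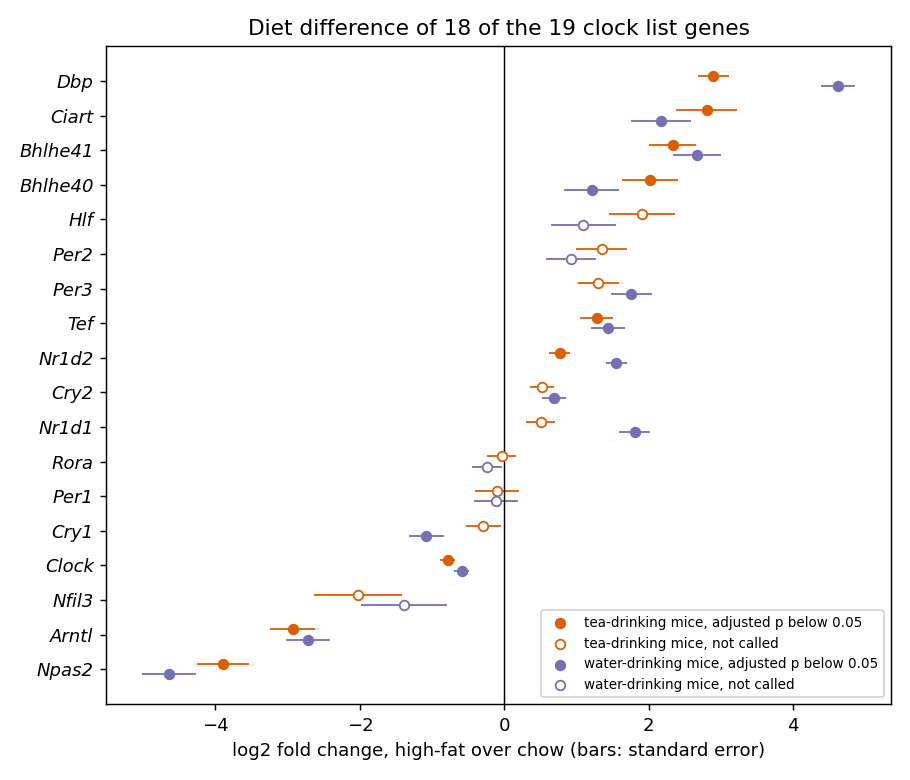
Log2 fold change of high-fat over chow for 18 of the 19 clock list genes, in tea-drinking and in water-drinking mice, with bars of 1 standard error and filled points for genes called at an adjusted p below 0.05. In tea-drinking mice the values run from −3.9 for Npas2 to 2.89 for Dbp, and 9 points are filled.

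Outside the clock list, 2 genes rose and 27 fell. Both rises were modest. Flot1 (chromosome 17, 36134122 to 36143683, plus strand), a scaffold protein of membrane rafts, went from 31.9, 35.9, 29.6, 31.2 and 25.5 CPM in chow tea mice to 58, 48, 41.7, 54.5 and 75.6 CPM in high-fat tea mice (log2 0.85, SE 0.16, adjusted p = 0.033). Exoc4 (chromosome 6, 33226020 to 33950914, plus strand), a subunit of the exocyst that tethers secretory vesicles, went from 31.6, 35.6, 30.0, 32.3 and 33.3 CPM to 57.1, 46.1, 41.4, 48 and 51.1 CPM (log2 0.58, SE 0.10, adjusted p = 0.0132). The groups did not overlap in either gene. Flot1 was called in 4 of 10 fits that left out 1 mouse and Exoc4 in 6, and both calls ended without chow tea replicate 1 or 5 or high-fat tea replicate 1 or 5, that of Flot1 also without chow tea replicate 3 or 4.

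Enzymes of lipid synthesis were among the falls. Scd3 (chromosome 19, 44191708 to 44232455, plus strand), a stearoyl-CoA desaturase, had 64.5, 16.2, 15.2, 23.7 and 43 CPM in chow tea mice and 4.04, 1.32, 5.83, 0.309 and 3.16 CPM in high-fat tea mice. The groups did not overlap although each was widely spread, and the fall was 11.1-fold (log2 −3.47, SE 0.62, adjusted p = 0.0237). Reads of the Scd genes can be shared between near-identical copies, so this value is less certain. Hacd2 (chromosome 16, 34842798 to 34929547, plus strand), which removes water in each round of fatty acid elongation, fell from 299, 206, 196, 246 and 236 CPM to 96.6, 99.4, 114, 75 and 90.3 CPM (log2 −1.31, SE 0.21, adjusted p = 0.0132). It was 1 of 5 genes (0.0259%) called when only the 10 tea libraries were fitted, with Dbp, Npas2, Arntl and Ciart. Pmvk (chromosome 3, 89361848 to 89376320, plus strand), a kinase of the mevalonate pathway to cholesterol, fell from 101, 69.2, 55.3, 64.3 and 84.8 CPM to 29.4, 30.8, 32.7, 12.2 and 23.9 CPM (log2 −1.54, SE 0.25, adjusted p = 0.0132). Calls of Scd3, Hacd2 and Pmvk held in 5, 6 and 7 of the 10 fits, each ending without chow tea replicate 1 or 5 or high-fat tea replicate 5, and those of Scd3 and Hacd2 also without high-fat tea replicate 1, that of Scd3 also without replicate 2, with adjusted p of at most 0.0789.

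The other enzymes of elongation and desaturation were less clear. In that list 2 of 20 genes were called, both lower, beside 0.141% of all genes called lower, and its median log2 fold change was −0.20. Elovl5, an elongase of polyunsaturated fatty acids, had 295, 199, 170.1, 205 and 214 CPM against 145, 114, 126, 89.2 and 114 CPM without overlap (log2 −0.88, adjusted p = 0.0826). Hsd17b12, the reductase of the same elongation cycle, averaged 371 ± 68.9 and 205 ± 54.5 CPM (log2 −0.86, adjusted p = 0.0904, and 0.0205 without high-fat tea replicate 3). Both were chosen after their values were seen. The main desaturase of fat, Scd1, had 81634, 83818, 62208, 64467 and 86269.7 CPM in chow tea mice and 50242, 26933, 41134, 10048 and 49319.9 CPM in high-fat tea mice. These did not overlap either, but the fold was not called (log2 −1.09, SE 0.59, adjusted p = 0.364). Fasn, the fatty acid synthase, had 5419.8, 4413, 1229, 5455 and 3145 CPM against 760.0, 3529, 514, 134 and 319.6 CPM, with high-fat tea replicate 2 within the range of the chow mice (log2 −1.9, SE 0.75, adjusted p = 0.229).

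Apmap, Agt and Rce1 were also among the 8 largest falls under the rule for named genes, which leaves out predicted genes and those of low level. Apmap (chromosome 2, 150425000 to 150450487, minus strand), a membrane protein of fat cells, had 913, 637, 538, 704 and 838 CPM in chow tea mice and 228, 173, 364, 127 and 203 CPM in high-fat tea mice, a 3.32-fold fall (log2 −1.73, SE 0.27, adjusted p = 0.013) that stayed called in all 10 fits but not with only the tea libraries (adjusted p = 0.101). Rce1 (chromosome 19, 4672619 to 4675669, minus strand), the protease that trims prenylated proteins, fell from 76, 47.2, 40.0, 47 and 68.4 CPM to 23.3, 14.9, 27.2, 18.4 and 20.5 CPM (log2 −1.42, SE 0.19, adjusted p = 0.00281), also called in all 10 but not with only the tea libraries (0.0986) or without the 9 libraries (0.0732). Agt (chromosome 8, 125283273 to 125296445, minus strand), the gene of angiotensinogen, fell from 485, 235, 273, 259 and 339 CPM to 98.8, 59.3, 178, 63.6 and 108 CPM (log2 −1.65, SE 0.32, adjusted p = 0.0385). It was the only member called of 17 tested adipokine genes. Agt kept its call without chow tea replicate 2 or high-fat tea replicate 3, and in the other 8 fits its adjusted p reached 0.143. High-fat tea replicate 3 was the highest of the high-fat mice for Apmap, Agt and Rce1, nearest to the chow mice.

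The rule for named genes left out the other falls, which are given because the calls were few and were chosen after their values were seen. Sccpdh, an oxidoreductase found on lipid droplets, had 64.6, 58.8, 57.6, 62.1 and 66.6 CPM in chow tea mice and 30.3, 26.1, 40.9, 22.7 and 24.8 CPM in high-fat tea mice (log2 −1.1, SE 0.14, adjusted p = 0.00178), called in all 10 fits but not with only the tea libraries (adjusted p = 0.0683). Pex16, which builds the peroxisome membrane, fell by 1.15 on the log2 scale (adjusted p = 0.0375) and was the only called gene whose groups overlapped, with high-fat tea replicate 3 at 121 CPM beside chow tea replicate 3 at 101 CPM. In the endoplasmic reticulum, Stt3b, a catalytic subunit of the enzyme that attaches sugar chains to proteins, went from 509 ± 91.9 to 250.1 ± 67.9 CPM (log2 −1.03, adjusted p = 0.0132). Slc25a46 and Mtpap, a mitochondrial membrane protein and the mitochondrial poly(A) polymerase, differed by log2 −0.42 and −0.48 (adjusted p = 0.0294 for each).

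Sik3, a salt-inducible kinase, fell by log2 −0.84 (adjusted p = 0.0251), Ptpa, an activator of protein phosphatase 2A, by −0.62 (0.0375), and Cask, a scaffold kinase, by −0.57 (0.0294). Leo1, a subunit of the PAF complex that travels with RNA polymerase, changed by −0.83 (0.0157), Pcbp2, a poly(C)-binding protein, by −0.46 (0.0385), and the zinc finger gene Zfp740 by −0.55 (0.0191). Xrcc3, a recombination factor, changed by −0.96 (0.0152), the kinesin Kif2a by −0.62 (0.0257), Mif4gd by −0.78 (0.0191) and Rsbn1 by −0.60 (0.0403). Pcbp2 and Rsbn1 share 30.2% and 30.6% of their exonic bases with Map3k12 and Phtf1os on the opposite strand. A further 5 falls were Smim41 (log2 −2.76) and 4 predicted or Riken genes, among them Gm12840 at 0.0402 to 0.282 CPM in high-fat tea against 0.918 to 3.19 CPM in chow tea (log2 −3.88, adjusted p = 0.0132). Apart from Sccpdh, none of the falls in these 2 groups of genes was called in all 10 fits, and the losses came most often without chow tea replicate 1 or 5 or high-fat tea replicate 1 or 5.

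**Figure D3:**
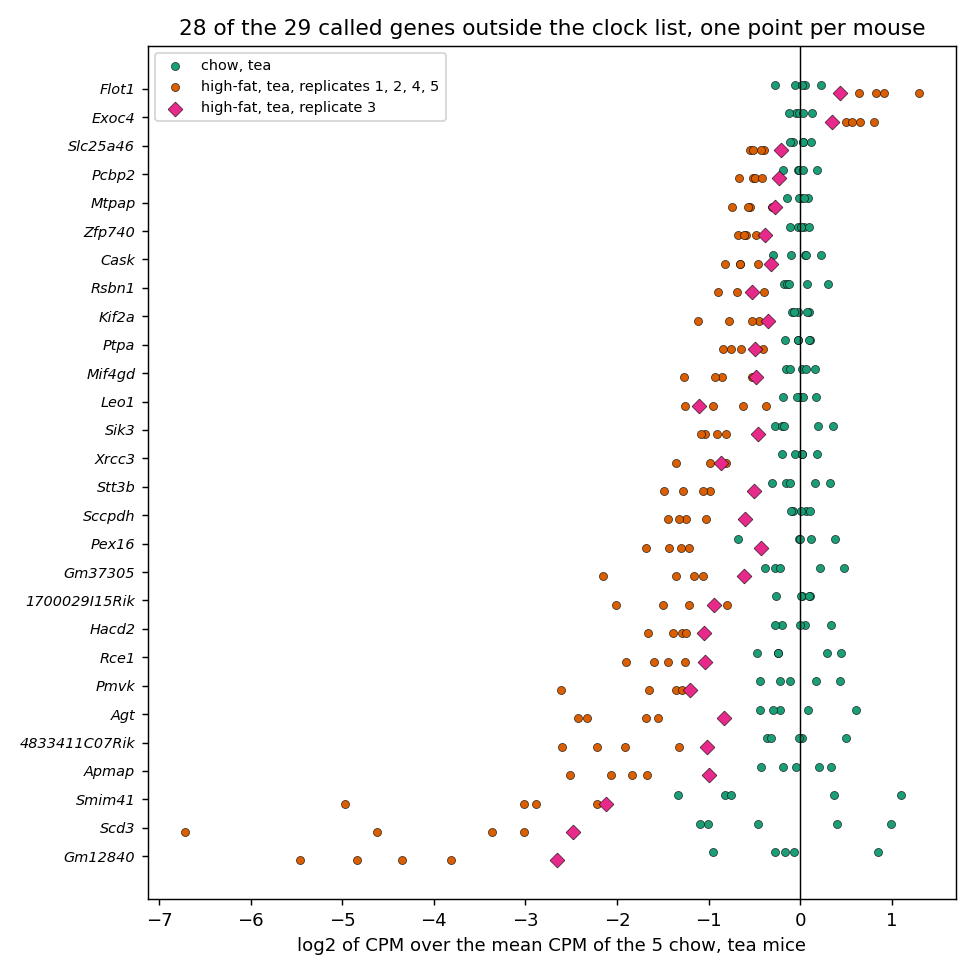
Of the 29 called genes outside the clock list, 28 are shown, as log2 of each mouse's CPM over the mean CPM of the 5 chow tea mice, 1 point per mouse. High-fat tea replicate 3, drawn as a diamond, is the highest of the high-fat mice in 22 of all 30 falls, clock genes included.

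Leptin, the hormone that reports fat stores, was higher in most high-fat mice but was not called by edgeR. Lep stood at 1.52, 17.7, 9.09, 6.56 and 0.807 CPM in chow tea mice and 165, 66.5, 5.06, 97.6 and 943 CPM in high-fat tea mice. In 4 of 5 high-fat mice it exceeded every chow mouse, and in replicate 3 it lay within the chow range, which left a log2 fold change of 5.16 with an SE of 1.2 (adjusted p = 0.0792). Lep was called once high-fat tea replicate 3 was left out (log2 5.48, adjusted p = 0.0172) and by DESeq2 (adjusted p = 8.18e-05). Mest, an imprinted gene that marks fat expansion, had the same order of high-fat mice, with 5.27, 18.7, 36, 7.22 and 11.5 CPM against 165, 34.4, 8.65, 39.1 and 441 CPM (log2 3.13, adjusted p = 0.132, and 0.0451 without replicate 3). Fgf13, a growth factor homologue, had 2.22, 3.05, 2.76, 1.94 and 1.67 CPM against 15, 3.0, 5.45, 3.13 and 23.8 CPM (log2 2.11, adjusted p = 0.0872, and 0.0374 without replicate 3). Mest and Fgf13 were chosen after their values were seen. Of the 14 genes in the leptin and expansion list, edgeR called 0 and voom 0, while DESeq2 called 6, all higher, beside 4.39% of all genes. At an unadjusted p below 0.05, 7 were higher and 1 was lower, beside 10.2% and 6.17% of all genes. The list had 9 members above 0 and 5 below (Cavin2, Plin2, Plin1, Peg3 and Cd36), with log2 fold changes from −0.69 to 5.16 and a median of 0.61.

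The genes named here for fat cell identity were not called. Adiponectin differed by log2 −0.27 (adjusted p = 0.77). Pparg, the master factor of fat cells, averaged 284 ± 49.5 and 216 ± 89.6 CPM (log2 −0.39, adjusted p = 0.589), with high-fat tea replicate 4, the library with kidney transcripts, the lowest at 59.9 CPM. Cfd, the gene of adipsin, had 20039.6, 16567, 13098, 17527 and 18817 CPM against 8021, 8757, 19422, 1839.9 and 4972 CPM. Its level in high-fat tea replicate 3 was among the highest of all, and the other 4 were below every chow mouse (log2 −1.0, adjusted p = 0.311, and log2 −1.55, adjusted p = 0.080 without replicate 3). Ucp1, the uncoupling protein of thermogenic fat, ranged over 1.22 to 508 CPM in chow tea and 32.7 to 429 CPM in high-fat tea, too widely to compare (log2 −0.28, SE 1.62). Cyp2d22, a cytochrome P450 gene, had 236, 192, 209.7, 225 and 238 CPM against 95.8, 132, 130.5, 54 and 129 CPM without overlap and narrowly missed the threshold (log2 −1.02, SE 0.22, adjusted p = 0.0591). It was called without replicate 3 (0.0244), by DESeq2 (0.0011) and voom (0.0496) and with counts divided by 2. It was also called without 3 libraries with organ transcripts, those named above for pancreas, kidney and seminal vesicle transcripts. Of these, only the kidney library, high-fat tea replicate 4, came from a tea-drinking mouse.

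Of the macrophage and matrix genes named here, edgeR called none in tea drinkers. Adgre1, the general macrophage marker, averaged 39.6 ± 11.6 CPM in chow tea and 42 ± 22.9 CPM in high-fat tea (log2 0.09, adjusted p = 0.944). Trem2, a receptor of lipid-associated macrophages, had 11.5, 5.36, 7.8, 3.52 and 2.97 CPM against 6.02, 1.95, 12.8, 3.26 and 20.3 CPM, fully overlapping (log2 0.51, adjusted p = 0.698). Itgax, which encodes CD11c, had 1.15, 2.66, 3.08, 1.43 and 1.12 CPM against 4.2, 3.15, 2.56, 6.1 and 23.2 CPM, with replicate 5 of the high-fat mice far above the rest (log2 2.05, adjusted p = 0.182). Mmp12, a macrophage elastase chosen after its values were seen, had 2.88, 0.584, 0.85, 0.756 and 0.215 CPM against 6.19, 3.06, 1.66, 8.13 and 56.9 CPM (log2 3.85, SE 0.84, adjusted p = 0.0638, and 0.0122 without high-fat tea replicate 3). Replicate 5 was again the highest. Ccl2 and Tnf, inflammatory signals, differed by log2 0.42 and 0.81 (adjusted p = 0.774 and 0.619), the collagens Col1a1 and Col15a1 by −0.08 and 0.80 (0.943 and 0.328).

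**Figure D4:**
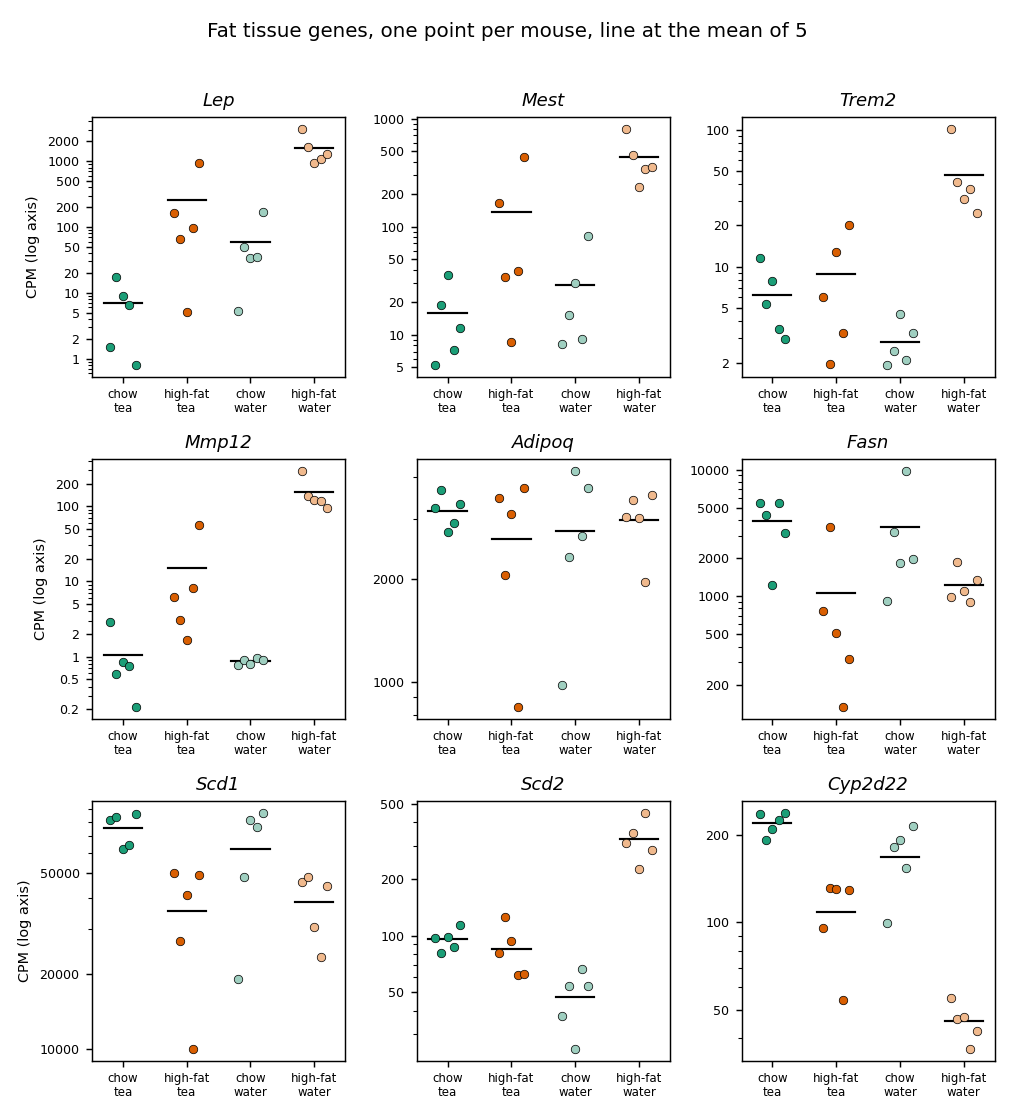
Levels of 9 fat tissue genes in CPM on log axes, 1 point per mouse and a line at the mean of 5, in the 4 groups. In high-fat tea mice Lep spans 5.06 to 943 CPM and Mmp12 1.66 to 56.9 CPM, and Scd1 and Cyp2d22 lie below all chow tea mice.

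Of the gene lists for fat tissue biology, only the clock list, the desaturase and elongase list (0 higher, 2 lower of 20), the adipokine list (0 and 1 of 17) and the cholesterol list (0 and 1 of 27) held a called gene, beside 0.141% of all genes called lower. The shares over all genes to set beside the counts that follow are 10.2% higher and 6.17% lower at an unadjusted p below 0.05, 4.39% called by DESeq2 and 0.343% by voom. In the list of lipid-associated macrophage genes edgeR called 0 of 24, with 3 higher at an unadjusted p below 0.05, while DESeq2 called 3 and voom 0, and the median log2 fold change was 0.29. For collagens and matrix it was 0 of 29 (2 higher and 1 lower unadjusted, 0 by DESeq2 and by voom, median 0.07). For antigen presentation by class II it was 0 of 12 (0 unadjusted, 0 by DESeq2 and by voom, median 0.14). The lysosome list had 0 of 35 (8 higher and 1 lower unadjusted, 2 by DESeq2, 0 by voom, median 0.11). The list of nuclear genes of oxidative phosphorylation had 0 of 43 (0 unadjusted, 0 by DESeq2 and by voom, median 0.05). De novo lipogenesis had 0 of 18 (4 lower unadjusted, 2 lower by DESeq2, 0 by voom, median −0.40), and the breakdown of branched-chain amino acids 0 of 24 (2 higher and 6 lower unadjusted, 1 higher and 3 lower by DESeq2, 0 by voom, median −0.12). In the glucocorticoid response list 0 of 17 were called (3 lower unadjusted, 1 lower by DESeq2 and by voom, median −0.41). Its member Cdkn1a, a cell cycle inhibitor chosen after its values were seen, had 228, 194, 106, 199 and 240.4 CPM against 96.2, 52.8, 65.2, 12.7 and 61.3 CPM without overlap (log2 −1.75, adjusted p = 0.0613, and 0.0373 without high-fat tea replicate 3). The cell cycle list had the highest median, 0.73, with 23 of 26 members above 0 and 0 called (2 higher and 1 lower unadjusted, 0 by DESeq2 and by voom). All genes tested had a median of 0.07.

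**Figure D5:**
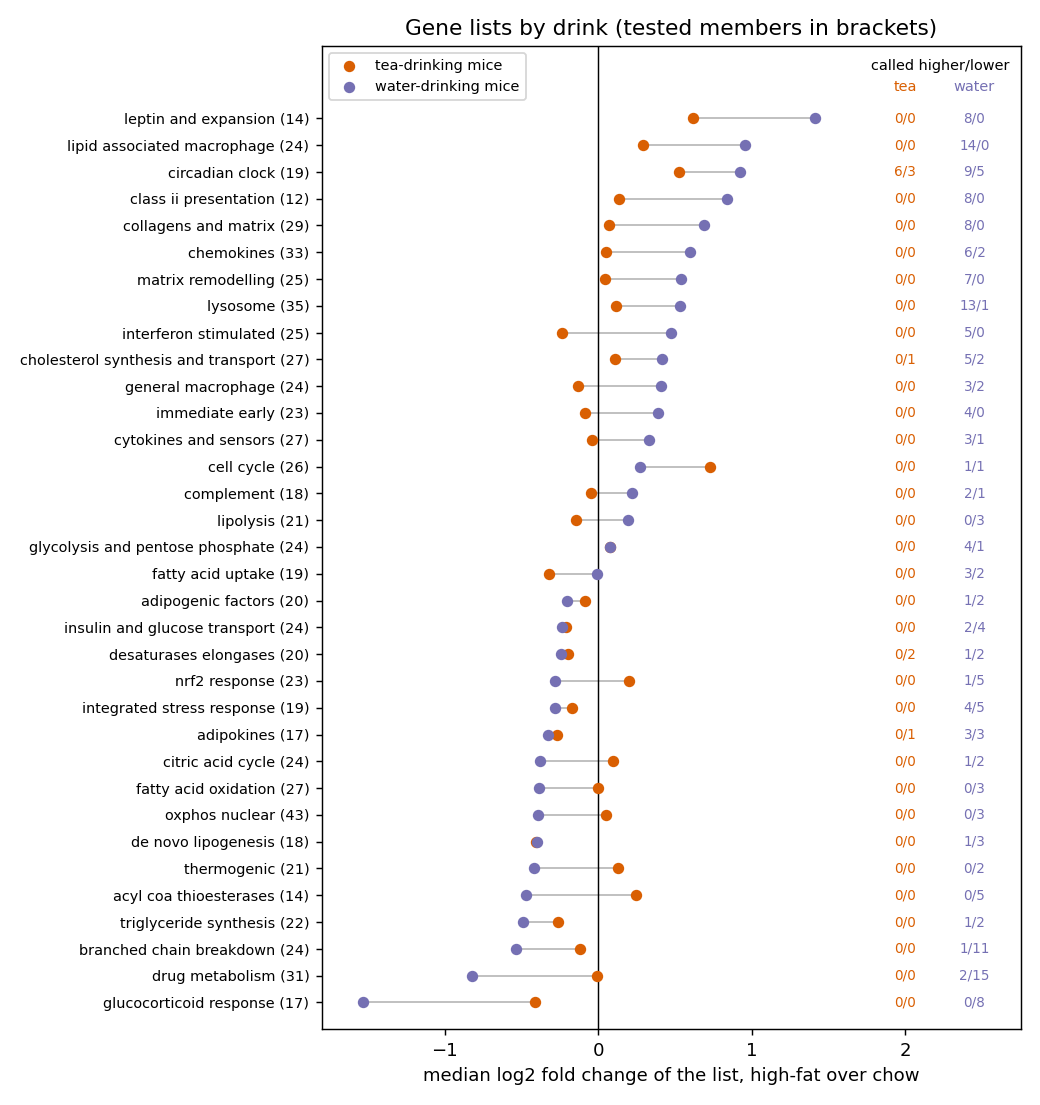
Median log2 fold change of high-fat over chow for each list of fat tissue biology, in tea-drinking and in water-drinking mice, with the number of tested members in brackets and the numbers called higher and lower at the right. The tea medians lie between −0.41 and 0.73, those of water-drinking mice between −1.53 and 1.41.

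In water-drinking mice the same diet contrast, which shares no library with the tea-drinking mice, gave 3232 calls (15.2% of genes tested), 1718 higher (8.06%) and 1514 lower (7.11%). It gave 3268 without chow water replicate 1, the library with pancreas transcripts, and 2052 without the 9 libraries with organ transcripts. Of the 38 genes called in tea drinkers, 28 were also called in water drinkers in the same direction and 0 in the opposite one, which is 73.7% of the tea calls and 0.866% of the water calls. Of the 3232 water calls, 2626 (81.2%) had the same sign in tea drinkers, and 3141 had a smaller log2 fold change there. No share over all genes tested is set beside either count. Because the 3232 genes were chosen on the water contrast, their water values tend to be the larger by selection. Their median size on the log2 scale was 0.99 with water and 0.33 with tea, while the median SE was 0.25 in both. The 10 tea calls not called with water included Apmap (−0.67 in water against −1.73 in tea), Rce1 (−0.37 against −1.42) and Ptpa (−0.04 against −0.62). None of these 3 was called by the test of the difference between the drinks, which gave log2 −1.06, SE 0.38, adjusted p = 0.187 for Apmap, log2 −1.05, SE 0.27, adjusted p = 0.116 for Rce1 and log2 −0.58, SE 0.17, adjusted p = 0.129 for Ptpa.

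That test, the interaction of diet and drink, called 14 genes (0.0657%), 7 with the diet difference more positive in tea drinkers and 7 with it more negative (0.0329% each). There were 9 calls without chow water replicate 1 and 44 without the 3 libraries named for pancreas, kidney and seminal vesicle transcripts. Without all 9 libraries with organ transcripts there were 0. The clock gene Dbp was among them. It rose with high-fat feeding in both settings, less with tea (2.89) than with water (4.62; log2 −1.73, SE 0.29, adjusted p = 0.0291). The high-fat mice had close means, at 66.9 ± 17 CPM with tea and 68.3 ± 13.4 CPM with water, and the chow mice did not, at 9.02 ± 1.68 and 2.77 ± 0.687 CPM. Of the 20 fits that left out 1 of all the mice, the interaction was called in 8 for Dbp, with log2 values of −1.85 to −1.60. The difference between drinks was not called for Npas2 (log2 0.75, SE 0.45, adjusted p = 0.464), Arntl (log2 −0.21, SE 0.40, adjusted p = 0.863) and Ciart (log2 0.63, SE 0.56, adjusted p = 0.647).

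Scd2, another stearoyl-CoA desaturase with the same doubt about shared reads, had the clearest difference between drinks. It was level across diets with tea, at 97.1, 80.6, 97.9, 86.7 and 114 CPM on chow and 81.3, 125, 93.4, 61.6 and 62.6 CPM on high-fat (log2 −0.17, adjusted p = 0.784), and rose with water (log2 2.78; interaction log2 −2.95, SE 0.35, adjusted p = 0.00238). Rassf6, of the Ras association domain family, was likewise close across diets with tea, at 12.5, 11.2, 14.7, 19.8 and 11.2 CPM and 7.82, 18.2, 14.2, 11.5 and 3.16 CPM, and fell with water from 12.7 ± 2.9 to 0.884 ± 0.272 CPM (interaction log2 3.52, SE 0.50, adjusted p = 0.00946). Septin9, a cytoskeletal GTPase, had 72.3 ± 5.5 and 73.8 ± 9.04 CPM with tea and rose with water (log2 1.24; interaction log2 −1.21, SE 0.16, adjusted p = 0.00616). These 3 genes were called in all 20 fits that left out 1 mouse. They were also called without the 3 libraries named for pancreas, kidney and seminal vesicle transcripts. None was called without all 9, a fit that kept only replicates 2 and 5 of high-fat tea and replicates 1 and 2 of high-fat water. Their log2 values there were −2.78, 3.62 and −1.25 with adjusted p of 0.225 to 0.314. Rassf6 was also not called by voom (0.0732). Acot4, a peroxisomal thioesterase, differed by −0.91 with tea against −3.28 with water (log2 2.36, SE 0.40, adjusted p = 0.0291). With tea it had 65.1, 58.3, 63.6, 53.8 and 82.2 CPM on chow and 20.6, 20.6, 50.5, 59.5 and 20.2 CPM on high-fat. High-fat tea replicate 4, the library with kidney transcripts, thus lay within the chow range.

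The remaining interaction calls named by the rule held in 3 to 5 of the 20 fits. Vac14, a scaffold of the enzyme complex that makes an endosomal lipid, had the values −0.20 with tea and 0.87 with water (log2 −1.06, SE 0.18, adjusted p = 0.0291). For Krt79, a keratin, they were −1.02 and 1.67 (log2 −2.69, SE 0.46, adjusted p = 0.0291). Ivns1abp, a kelch-domain protein, had 0.51 and −0.89 (log2 1.41, SE 0.25, adjusted p = 0.0444), and Sqor, the mitochondrial enzyme that oxidizes sulfide, had 0.00 and −0.95 (log2 0.95, SE 0.17, adjusted p = 0.0444). Acot4 held in 7. The difference between drinks was not called for Trem2, Mmp12, Col15a1 or Lep. Trem2 came to log2 −3.54, SE 0.80, adjusted p = 0.107, Mmp12 to log2 −3.60, SE 1.11, adjusted p = 0.134, Col15a1 to log2 −1.99, SE 0.57, adjusted p = 0.127, and Lep to log2 0.39, SE 1.43, adjusted p = 0.935. At an unadjusted p below 0.05 the diet difference was more negative with tea for 8 of 12 class II genes and 11 of 35 lysosome genes. The same held for 11 of 24 lipid-associated macrophage, 6 of 29 collagen and matrix and 13 of 25 interferon-stimulated genes, beside 5.93% of all genes. Other lists went the other way. The difference was more positive for 15 of 31 drug metabolism genes and 8 of 23 genes of the antioxidant (NRF2) response. The share of all genes in that direction is not given here. In each of these lists edgeR called 0 genes for the interaction. DESeq2 called 692 genes (3.25%) for the interaction and voom 6 (0.0282%).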

How the data were processed

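The authors deposited unnormalized whole-number read counts per gene, 1 table per library. The submitters' processing notes list fastp 0.23.2 and HISAT2 2.2.1, besides featureCounts 2.0.6, which per the file headers counted against GENCODE vM32 (GRCm39), while the notes name mm10, so positions of genes are GRCm39. Per the file headers, both ends of a pair were counted (68.1% to 71.3% of counts from 1 to 20 were even) and no strand option was set, although the kit keeps strand per the labels' protocols.

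From the deposited counts, filterByExpr of edgeR 4.0.16 (minimum count 10, minimum total 15) kept 21306 genes and removed 35499. Libraries were scaled by TMM, and the quasi-likelihood F test (R 4.3.3) used 1 mean per group, all 20 libraries and no covariate. Benjamini-Hochberg adjustment ran over all genes tested, and genes under an adjusted p of 0.05 are called. Across genes the biological coefficient of variation was 0.593 (common estimate). The SE of a log2 fold change is its size over the root of the F statistic, and CPM use the scaled library sizes (mean ± SD over 5 mice). The steps were tested on simulated data. DESeq2 1.42.0, limma 3.58.1 (voom) and the other alternatives are compared in the closing section. No library pair within a group agreed within sampling noise (lowest chi-square per gene 61.6 over 20 pairs). With 5 mice a side, the p-values rest on variation among mice within groups over all 20 libraries, those of the water-drinking mice included. Tissue sampling and library preparation are part of that variation.

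Named genes are the 8 strongest called rises and 8 strongest called falls at most (mean log2 CPM of at least 1, no predicted-gene name, groups that do not overlap), up to 3 called members of each list whose share called exceeds that of all genes, 18 genes named whatever their result, and up to 5 interaction calls of each sign. The comparison, the members and the 52 gene lists were chosen with earlier results of these data known. Results for 2 genes are not reported here, though counts over all genes and lists include them.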

Additional observations from a re-analysis of the deposited data

Results flagged for a closer look

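Single mice stood apart from the other 4 of their group for 12 of 150 combinations of gene and group examined, by a test of the gap to the nearest mouse that flags about 1 in 20 such groups by chance. In chow tea mice, Bhlhe40 in replicate 2 was at 18.9 CPM (9.87 to 12.4 CPM in the other 4), Nr1d2 in replicate 3 at 56.4 CPM (74.3 to 77.5 CPM in the other 4) and Mmp12 in replicate 1 at 2.88 CPM (0.215 to 0.85 CPM in the other 4). In high-fat tea replicate 5, Lep was at 943 CPM (5.06 to 165 CPM in the other 4), Itgax at 23.2 CPM (2.56 to 6.1 CPM in the other 4) and Mmp12 at 56.9 CPM (1.66 to 8.13 CPM in the other 4). In high-fat tea replicate 4, the library with kidney transcripts, Pparg was at 59.9 CPM (229 to 283 CPM in the other 4), Cry2 at 36.8 CPM (66.3 to 77.4 CPM in the other 4) and Hlf at 143 CPM (26 to 46.1 CPM in the other 4). Fasn stood at 3529 CPM (134 to 760.0 CPM in the other 4) in high-fat tea replicate 2, Pex16 at 121 CPM (50.8 to 70.0 CPM in the other 4) in replicate 3 and Nfil3 at 16.3 CPM (2.13 to 5.22 CPM in the other 4) in replicate 1.

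The diet difference itself differed between tea-drinking and water-drinking mice, by the interaction test at an adjusted p below 0.05, for 9 genes named in the report. On the log2 scale, tea minus water, it was more positive with tea for Rassf6 (3.52), Acot4 (2.36), Ivns1abp (1.41) and Sqor (0.95). It was more negative with tea for Scd2 (−2.95), Krt79 (−2.69), Dbp (−1.73), Septin9 (−1.21) and Vac14 (−1.06).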

How the results depend on the processing

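The 38 calls of the diet contrast in tea drinkers became 36 with DESeq2 size factors in edgeR, 36 with the organ list genes removed and 39 with robust dispersion, an alternative chosen after seeing the data. Larger moves were 19 with no filter on low counts, 935 with DESeq2, 73 with limma voom and 67 with counts divided by 2. There were 292 without the 3 libraries named for pancreas, kidney and seminal vesicle transcripts. That fit kept high-fat tea replicate 1, with 4.25% of its reads from muscle transcripts. There were 5 without the 9 libraries with organ transcripts (Dbp, Bhlhe41, Apmap, Sccpdh and Hacd2) and 5 with only the groups compared. Leaving out 1 mouse gave 10 to 390. Clock list calls moved from 9 to 14 with DESeq2, 2 without the 9 libraries and 4 with only the groups compared, and stayed at 6 to 13 when 1 mouse was left out. Water drinkers had 2052 calls without the 9 libraries and 1890 to 3445 with 1 mouse left out. The 14 interaction calls were 4 with no filter, 692 with DESeq2, 6 with voom, 44 without the 3 libraries, 0 without the 9 libraries (2260 of 22311 at an unadjusted p below 0.05 in edgeR) and 3 to 111 with 1 mouse left out, the most without high-fat tea replicate 5. Settings with fewer libraries have fewer mice to estimate the spread from, and calls moved both up and down among them. The cause of these moves was not tested.

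Same-numbered mice did not regularly deviate together across diets (correlations of −0.27 to 0.39, with 1 of 5 chow tea mice closest to its own number). A correlation over all genes cannot exclude a pairing by number, and the main fit used none. With the replicate number as a block, 28 genes were called in tea drinkers, 24 of them among the 38, with 7 clock genes, 2611 in water drinkers and 14 for the interaction.

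Of the log2 fold changes of single genes, only values that were not called changed sign. Ucp1 was 0.99 with voom, 0.91 with the block and 0.19 without the 9 libraries, Adgre1 −0.00733 with voom, Col1a1 0.148 without the 3 and 0.0939 without the 9 libraries, Sqor −0.00712 and −0.0557, Per1 0.0797 and 0.0791, and Rora 0.0273 without the 3. With 1 mouse left out they ranged over −0.928 to 0.339 for Ucp1, −0.294 to 0.26 for Adgre1, −0.0563 to 0.848 for Trem2, −0.228 to 0.148 for Col1a1, −0.0277 to 0.038 for Sqor, −0.0385 to 0.0821 for Septin9, −0.274 to 0.0793 for Per1 and −0.198 to 0.0554 for Rora. At 62772320 reads or more per library, depth limits the precision only of genes with few reads, such as Tnf at 0 to 0.479 CPM.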
